A study of Mus musculus with 27 samples.

Results

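The TNF and TNF receptor superfamily was followed as 40 protein-coding genes, 16 ligands and 24 receptors, of the 22524 genes in the count tables. Members were taken by symbol after the Ensembl identifiers had been matched to GENCODE vM21: each symbol made of Tnfsf or Tnfrsf and a number, and in addition Tnf, Lta, Ltb, Ltbr, Fas, Fasl, Cd40, Cd27 and Cd70. The data are RNA-seq of 27 libraries. Organoids grown from the jejunum came from 9 adult male C57BL/6 mice, 3 from each of the specific pathogen-free (SPF) facilities SR and SE and 3 from the germ-free (GF) facility, with the mice of a facility being cohoused littermates. Of every culture, 1 library carries the label untreated and 1 the label TNF (5 ng/mL for 8 hr). The same pair of labels is given to 3 numbered cultures of m-ICc12, a line of immortalised epithelial cells from the mouse small intestine. Mouse embryonic fibroblasts (MEFs), untreated, gave 3 libraries. The labels name no genetic modification in any group, and nothing states that the 3 libraries of a cell line came from separate derivations of it.

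Superfamily ligands are trimeric proteins that are made at the cell surface, from which many are shed. Receptors that carry a death domain, such as TNF receptor 1 (Tnfrsf1a), Fas and the TRAIL receptor (Tnfrsf10b), can signal to cell death, while most others recruit TRAF adaptors and activate NF-κB, and decoy receptors bind a ligand without passing on a signal. In the gut epithelium, TNF receptor 1 mediates the response to TNF, RANK (Tnfrsf11a) is needed for M cell development, and the lymphotoxin beta receptor (Ltbr) takes part in mucosal defence.

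Before the levels, a limit of the labels applies. For all 12 pairs, organoid and m-ICc12 alike, the code in the name of the deposited data gives the treatment that the sample label gives to the other library of the pair. Textbook TNF target genes also went against the labels: in organoids, 7 of 8 tested were lower under the TNF label (edgeR, adjusted p under 0.05), and in m-ICc12 cells 7 of 9. Nfkbia, the inhibitor of NF-κB that NF-κB itself induces, had a mean of 195.8 ± 27.1 CPM (counts scaled to the library total with TMM factors; SD, n = 9) in organoids under the untreated label and of 31.1 ± 3.58 CPM under the TNF label. The paper reports a rise of the Nfkb2 protein with TNF in organoids and counts Nfkb2, Tnfaip3, C3 and Relb among described TNF targets. Here the Nfkb2 transcript in organoids was lower under the TNF label, at a log2 fold change of -1.79 ± 0.11 (SE, edgeR adjusted p = 1.3e-11). Groups are named by label throughout. Each treatment difference below turns its sign, with its size and p unchanged, when the 2 labels are exchanged.

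Total counts on genes ranged from 6071103 to 43843615 per library, so that 3 counts, used as the detection floor, correspond to 0.0684 to 0.494 CPM. The library with the fewest counts, m-ICc12 culture M1 labelled TNF-treated, also held 13.46% of its counts in Lars2, and the library of M3 with this label 4.44%, against 0.0739 to 0.688% in all others. All 6 epithelial markers listed (Epcam, Cdh1, Krt8, Krt18, Krt19 and Cldn7) were above background in organoids, at a sum of 5818 to 7053 CPM with the untreated label, and in m-ICc12 cells, at 1563 to 2132 CPM. The sum of 6 small intestinal markers was 2145 to 3499 CPM in these organoid libraries but 18.5 to 46.4 CPM in these m-ICc12 libraries. Of 7 fibroblast markers, 5 were above background in MEFs, at a sum of 3303 to 4360 CPM for the list, while Thy1 was at 0 in each library and Dcn was below it.

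To show the sequences at which transcription of the members discussed most begins, promoters were taken from RefSeq (build GRCm38.p6), from 250 bases before to 50 bases after an annotated start. The tables held 31 of the 40 members. Capitals mark matches, on either strand, to the TATA motif TATAAA or to the NF-kB consensus. The first 4 are the members that differed with the treatment label in organoids: Tnf (chr17:35201958-35202257, minus strand), Tnfsf10 (chr3:27316827-27317126, plus strand), Tnfrsf11a (chr1:105780473-105780772, plus strand) and Tnfrsf23 (chr7:143685826-143686125, minus strand). The last is 1 of the 2 annotated starts of Tnfrsf9 (chr4:150927749-150928048, plus strand), shown as a member with matches to the NF-kB consensus.
Tnf: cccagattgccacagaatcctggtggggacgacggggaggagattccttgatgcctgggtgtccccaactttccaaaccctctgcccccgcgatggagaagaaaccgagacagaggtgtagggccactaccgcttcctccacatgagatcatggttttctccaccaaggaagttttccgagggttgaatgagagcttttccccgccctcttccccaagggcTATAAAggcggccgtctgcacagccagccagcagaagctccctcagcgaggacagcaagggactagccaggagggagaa
Tnfsf10: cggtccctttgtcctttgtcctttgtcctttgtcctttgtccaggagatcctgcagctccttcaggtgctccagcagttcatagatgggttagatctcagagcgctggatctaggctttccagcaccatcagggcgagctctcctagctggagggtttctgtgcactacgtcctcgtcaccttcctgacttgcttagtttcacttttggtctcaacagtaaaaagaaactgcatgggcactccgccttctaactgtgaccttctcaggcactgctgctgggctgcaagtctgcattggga
Tnfrsf11a: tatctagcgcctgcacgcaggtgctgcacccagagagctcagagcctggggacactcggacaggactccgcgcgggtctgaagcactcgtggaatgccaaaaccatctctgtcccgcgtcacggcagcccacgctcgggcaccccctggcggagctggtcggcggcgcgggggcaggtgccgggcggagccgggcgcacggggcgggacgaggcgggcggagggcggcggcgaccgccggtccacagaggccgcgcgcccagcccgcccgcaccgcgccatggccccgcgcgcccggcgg
Tnfrsf23: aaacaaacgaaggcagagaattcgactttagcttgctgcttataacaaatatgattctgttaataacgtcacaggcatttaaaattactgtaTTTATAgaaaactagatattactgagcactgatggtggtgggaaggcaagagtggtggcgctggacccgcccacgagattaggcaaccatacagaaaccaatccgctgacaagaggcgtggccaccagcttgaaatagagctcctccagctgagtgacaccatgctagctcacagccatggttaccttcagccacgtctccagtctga
Tnfrsf9: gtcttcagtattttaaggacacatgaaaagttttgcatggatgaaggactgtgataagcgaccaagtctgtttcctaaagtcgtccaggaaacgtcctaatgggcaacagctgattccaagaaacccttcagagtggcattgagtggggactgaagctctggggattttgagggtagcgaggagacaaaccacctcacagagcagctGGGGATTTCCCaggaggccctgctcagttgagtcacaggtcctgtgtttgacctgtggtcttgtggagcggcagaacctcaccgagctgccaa

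The promoter of Tnf holds TATAAA on its own strand, beginning 29 bases before the start. In Tnfrsf23 the match lies on the opposite strand, from 158 bases before the start. TATAAA occurs in 6 of the 31 members with an entry (Lta, Tnf, Tnfrsf17, Tnfrsf23, Tnfsf11 and Tnfsf18) and in 13.6% of all 32851 promoters of the same length. The NF-kB consensus occurs in 4 members (Ltb, Tnfrsf25, Tnfrsf8 and Tnfrsf9) and in 8.46% of all promoters. A member was counted where any of its annotated starts held a match, while the percentages are shares of promoters. The counts of members can therefore not be set against these percentages. In Tnfrsf9, GGGGATTTCC and, overlapping it and read on both strands, GGGATTTCCC begin 43 and 42 bases before this start, while the other annotated start (chr4:150919905-150920204) holds no match to either motif. A missing match says only that these letters are not in this window.

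Which members were made at all in the 3 cell types was asked first. A gene was taken as present in a cell type where 50% or more of the libraries with 1 treatment label held 10 or more of its counts. Of the 40 members, 23 were present in organoids (57.5%, against 53.7% of all genes), 14 in m-ICc12 cells (35%, against 52.7%) and 19 in MEFs (47.5%, against 52.7%). Receptors made up most of them: 17 of 24 receptors but 6 of 16 ligands were present in organoids, 11 and 3 in m-ICc12 cells, and 15 and 4 in MEFs.

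Of the 27 members present somewhere, 12 were present in all 3 cell types. These were the ligands Tnfsf9 and Tnfsf13 and the receptors Fas, Ltbr, Tnfrsf1a, Tnfrsf1b, Tnfrsf10b, Tnfrsf12a, Tnfrsf21, Tnfrsf22, Tnfrsf23 and Tnfrsf25. A further 8 were present in organoids only, namely Tnf, Tnfsf10, Tnfsf13b, Tnfsf15, Cd40, Tnfrsf14, Tnfrsf18 and Tnfrsf19. Tnfrsf4, Tnfrsf11a and Tnfrsf11b were present in organoids and MEFs, Tnfsf12 and Tnfrsf9 in m-ICc12 cells and MEFs, and Fasl and Tnfrsf26 in MEFs only. The heat map of levels shows these blocks by library.

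**Figure D1:**
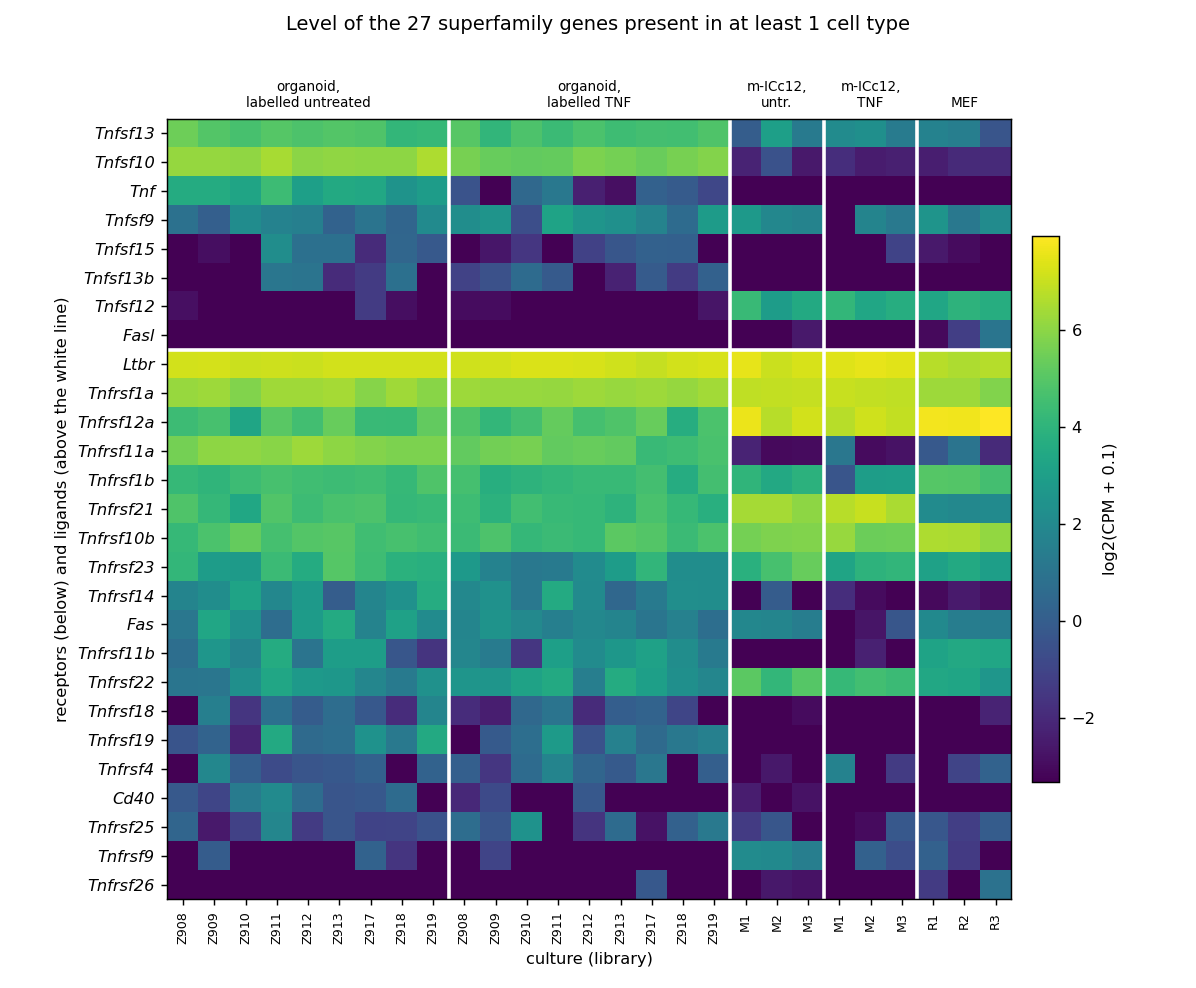
Level of the 27 superfamily genes present in at least 1 cell type (rows) in each of 27 libraries (columns, by culture), as log2(CPM + 0.1), with ligands above and receptors below the horizontal white line and vertical lines between groups. Tnf is at the lowest colour in all m-ICc12 and MEF libraries, where it had 0 counts, and Ltbr lies between 94.7 and 183.3 CPM in all 27.

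The 13 members present in no cell type were the ligands Lta, Ltb, Cd70, Tnfsf4, Tnfsf8, Tnfsf11, Tnfsf14 and Tnfsf18 and the receptors Cd27, Tnfrsf8, Tnfrsf13b, Tnfrsf13c and Tnfrsf17. Many of them are known mainly from lymphocytes and antigen-presenting cells. Cd27 and its ligand Cd70 act in T cell costimulation, and Tnfrsf13b, Tnfrsf13c and Tnfrsf17 bind the B cell factors BAFF and APRIL. Tnfsf11 encodes RANKL. Of the 13 members, 5 (Cd27, Cd70, Tnfrsf17, Tnfsf8 and Tnfsf11) had 0 counts in all 27 libraries, which allows up to the floor given above. Tnfrsf13b, Tnfsf4 and Tnfsf14 stayed under 10 counts in each library. Lta reached 1.05 and 0.934 CPM in 2 of the 3 GF libraries labelled untreated and was at 0 in the third. With this label it was also at 0.349 CPM in the SR culture Z910 and at 0.264 CPM in m-ICc12 culture M3. Tnfrsf13c reached 2.53 CPM in 1 library, that of Z919 labelled untreated. The highest levels of Tnfrsf8, Ltb and Tnfsf18 in any library were 0.851, 0.400 and 0.408 CPM.

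Since leukocytes make many of these ligands, markers of them were read in the same libraries. In the organoids, Adgre1 and Itgax were at 0 in every library, and Ptprc and Cd3e did not reach the background criterion. Itgam and Cd14 were above background. The summed level of the leukocyte list was 4.64 to 27.2 CPM with the untreated label and 6.23 to 13.6 CPM with the TNF label, so that these ranges overlapped. In these cultures, fewer cells of a type and less RNA per cell cannot be told apart.

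Levels were then set in order per length, as CPM per kb of exon, in the 9 organoid libraries labelled untreated. Ltbr stood highest, at 59.8 ± 2.74 CPM per kb (SD, n = 9), and its lowest library (55.8) was above the highest of every other member. Tnfrsf1a followed at 28.2 ± 4.25 CPM per kb. From there on each member overlapped the next in the order: Tnfsf13 (the ligand APRIL) at 17.2 ± 4.67, Tnfsf10 (TRAIL) at 13.8 ± 2.09, Tnfrsf12a (the TWEAK receptor) at 13.3 ± 5.09 and Tnfrsf11a (RANK) at 10.2 ± 1.57 CPM per kb. Tnf itself came next, at 6.63 ± 2.73 CPM per kb, and TNF receptor 2 (Tnfrsf1b) at 5.68 ± 0.955 CPM per kb. This place of Tnf rests on the label: under the TNF label it was at 0.444 ± 0.433 CPM per kb, below 18 other members, and Tnfrsf1b at 4.94 ± 1.19 CPM per kb. The order of the first 3, Ltbr, Tnfrsf1a and Tnfsf13, was the same there.

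Among the 12071 genes present in organoids with a length, Ltbr lay at percentile 93.1 and Tnfrsf1a at 84.1 of the level per kb. Tnf lay at percentile 47.2 with the untreated label but at 8.17 with the TNF label. Of the members present in organoids, Tnfsf13b (BAFF) lay lowest with the untreated label, at 1.27. It met the presence criterion only through the TNF label, with 10 counts in 5 of 9 libraries against 3 of 9 labelled untreated. Cd40, a receptor of antigen-presenting cells, was at percentile 6.88 with the untreated and 0.406 with the TNF label.

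**Figure D2:**
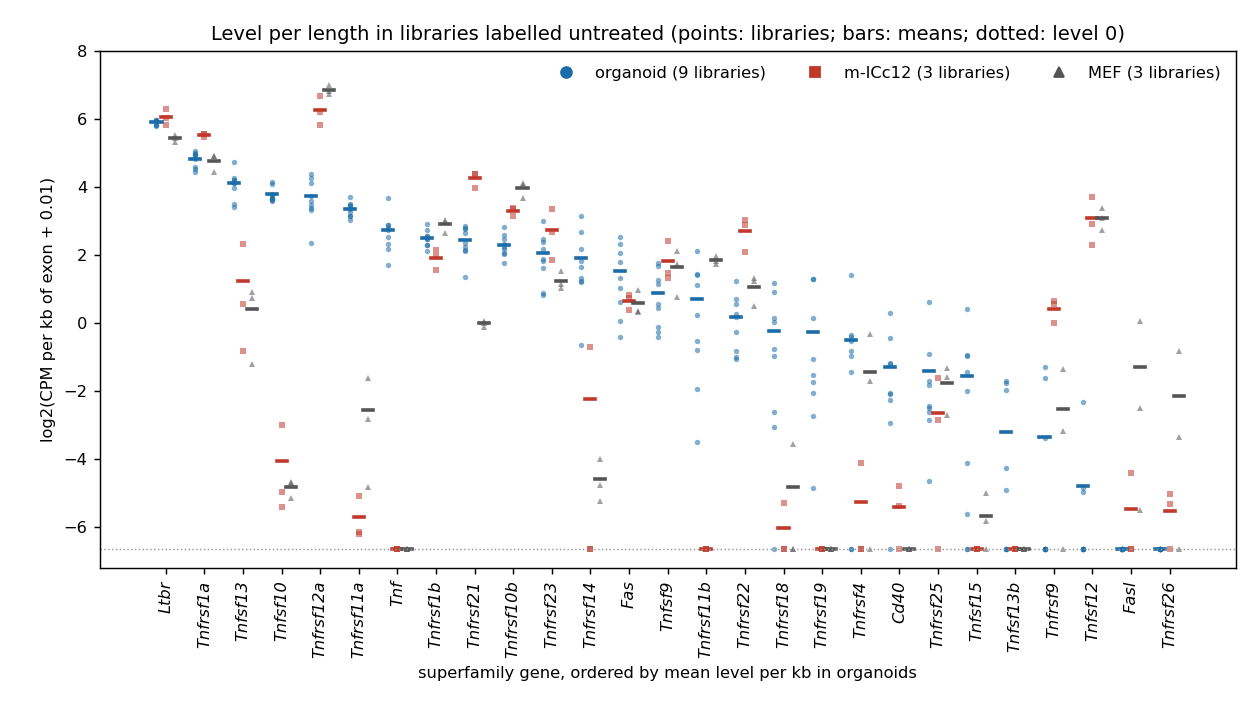
Level per kb of exon, as log2(CPM per kb + 0.01), of the 27 members present somewhere, in the libraries labelled untreated of organoids (9), m-ICc12 cells (3) and MEFs (3). Points are libraries, bars are means, and the dotted line is a level of 0; the means of Ltbr and of Tnfrsf1a lie within 1 log2 unit across the cell types, while in these libraries every organoid point of Tnf, Tnfsf10 and Tnfrsf11a lies above all points of the other cell types.

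The first comparison asked which members change when organoids are exposed to TNF. Of the 23 members tested, 4 differed between the 9 libraries labelled TNF-treated and the 9 labelled untreated (edgeR's quasi-likelihood test, Benjamini-Hochberg adjusted p under 0.05 over all genes), against 1.39% of the 12104 genes tested. All 4 were lower with the TNF label, a direction taken by 1.26% of all genes: the ligands Tnf and Tnfsf10 and the receptors Tnfrsf11a and Tnfrsf23. The median log2 fold change of the 23 members was -0.21, that of all genes -0.00, and the other 17 members were too low to test. Each of the 4 was lower in the library labelled TNF-treated in 9 of 9 cultures, as were 1.87% of the genes tested. The 6 small intestinal markers (Vil1, Cdx1, Cdx2, Fabp2, Olfm4 and Lyz1) also moved with the label, from a sum of 2145 to 3499 CPM to one of 1719 to 2185 CPM, and their part in these differences was not tested.

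Tnf (ENSMUSG00000024401; GRCm38 chromosome 17, 35199381 to 35202007, minus strand), the founding ligand, was at a lowest, median and highest level of 5.37, 10.8 and 21.1 CPM in the organoid libraries labelled untreated. In those labelled TNF-treated it was at 0, 0.627 and 2.17 CPM. The 2 groups did not overlap, which held in this direction for 0.463% of all genes tested. Its mean was 14.9 times higher with the untreated label, with a log2 fold change of -3.97 ± 0.59 (SE; edgeR, adjusted p = 0.00012).

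Tnfsf10 (ENSMUSG00000039304; chromosome 3, 27317028 to 27342427, plus strand) encodes TRAIL, the ligand of the death receptor Tnfrsf10b. It was at a lowest, median and highest level of 63.1, 67.4 and 93.7 CPM with the untreated label and of 37.4, 48.1 and 57.3 CPM with the TNF label. These groups did not overlap either. Its log2 fold change was -0.66 ± 0.10 (SE; edgeR, adjusted p = 0.00027), and the ratio of the 2 libraries of a culture ranged from 1.18 to 2.32.

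Tnfrsf11a (ENSMUSG00000026321; chromosome 1, 105780718 to 105847981, plus strand) encodes RANK. It was at a lowest, median and highest level of 48.7, 61.2 and 78.7 CPM with the untreated label and of 20.1, 37.4 and 50.4 CPM with the TNF label, and the groups overlapped only between 48.7 and 50.4 CPM. Its log2 fold change was -0.80 ± 0.15 (SE; edgeR, adjusted p = 0.0026). With all 27 libraries in 1 fit, and so with 1 spread shared with the cell lines, it was -0.85 with an adjusted p of 0.28. The ligand of RANK, Tnfsf11, had 0 counts in every library, and its soluble decoy receptor Tnfrsf11b was at medians of 3.31 and 4.20 CPM with the untreated and TNF labels, with a log2 fold change of -0.04 ± 0.58.

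Tnfrsf23 (ENSMUSG00000037613; chromosome 7, 143665809 to 143685872, minus strand) encodes a mouse decoy receptor for TRAIL. It was at a lowest, median and highest level of 6.98, 14.7 and 31.8 CPM with the untreated label and of 2.20, 4.44 and 17.03 CPM with the TNF label. The groups overlapped through 2 libraries with the TNF label, that of the GF culture Z917 at 17.03 CPM and that of Z913 at 7.398 CPM. Its log2 fold change was -1.50 ± 0.35 (SE; edgeR, adjusted p = 0.02). The adjusted p passed 0.05, at up to 0.08, when any 1 of Z911, Z912, Z913, Z918 or Z919 was left out, and was 0.0015 without Z917. Of the 100-base stretches of its exons, 9.31% also occur in Tnfrsf22, so that reads of these neighbours could be exchanged.

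The rest of the TRAIL receptors gave other values. Tnfrsf10b, the death receptor for TRAIL, was at 18.4 to 38.4 CPM with the untreated label and at 18.3 to 34.1 CPM with the TNF label, at a log2 fold change of -0.15 ± 0.16 (SE). Tnfrsf22, the other decoy, was at 1.98 to 9.95 and at 2.69 to 12.2 CPM, at 0.56 ± 0.37, and was higher with the TNF label in 7 of 9 cultures. Neither passed the test.

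Both TNF receptors stayed within the spread between cultures. Tnfrsf1a was at a lowest, median and highest level of 56.5, 77.6 and 86.2 CPM with the untreated label and of 71.0, 74.4 and 83.8 CPM with the TNF label, at a log2 fold change of 0.05 ± 0.09 (SE; edgeR, adjusted p = 0.95). Tnfrsf1b, which lacks a death domain and is the receptor better known from immune cells, was at 16.7, 21.3 and 28.6 CPM and at 12.6, 19.1 and 24.5 CPM, at -0.21 ± 0.16 (adjusted p = 0.82). Ltbr was at 131.3 to 147.3 and at 123.1 to 157.6 CPM, at 0.05 ± 0.06 (adjusted p = 0.92). The estimates for Tnfrsf1a and Ltbr were thus the most precise of the members and lay next to 0.

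Fas, a death receptor, was at a lowest, median and highest level of 1.52, 5.17 and 11.8 CPM with the untreated label and of 1.60, 3.34 and 5.39 CPM with the TNF label. It was lower with the TNF label in 7 of 9 cultures, at a log2 fold change of -0.89 ± 0.39 (SE; edgeR, adjusted p = 0.46). By the thresholds of the study (p no higher than 0.05 before adjustment, log2 fold change no smaller than 0.5 in size), 7 members passed against 2.91% of all genes, 6 lower (2.22%) and 1 higher (0.686%). These added Fas, Cd40 (-3.04 ± 1.07, adjusted p = 0.27) and, as the one member higher with the TNF label, Tnfsf9 (1.00 ± 0.48, adjusted p = 0.54) to the 4 above. Tnfsf9, a costimulatory ligand, was higher with that label in 8 of 9 cultures, at medians of 1.91 and 4.92 CPM.

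The plot of levels by culture shows these genes for both epithelial models. Among genes that act around the receptors, 4 of 27 tested from a list of 28 complex members and adaptors were lower with the TNF label and none was higher, with a median log2 fold change of -0.05. These were Tnfaip3 (-1.54 ± 0.12, SE), Birc3 (-1.07 ± 0.15), Tnip1 (-0.95 ± 0.10) and Traf3 (-0.57 ± 0.12). Tnfaip3, Tnip1 and Traf3 restrain signalling and Birc3 is a ubiquitin ligase at TNF receptor 1; Tnfaip3 and Birc3 also stand in the list of TNF targets. Of 6 genes of ligand shedding and processing, all tested, 1 was lower: Rhbdf2 (-0.76 ± 0.13, edgeR, adjusted p = 0.0011), a partner of the protease that releases TNF. Of 6 superfamily genes outside the symbol rule, 2 were tested and neither passed.

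**Figure D3:**
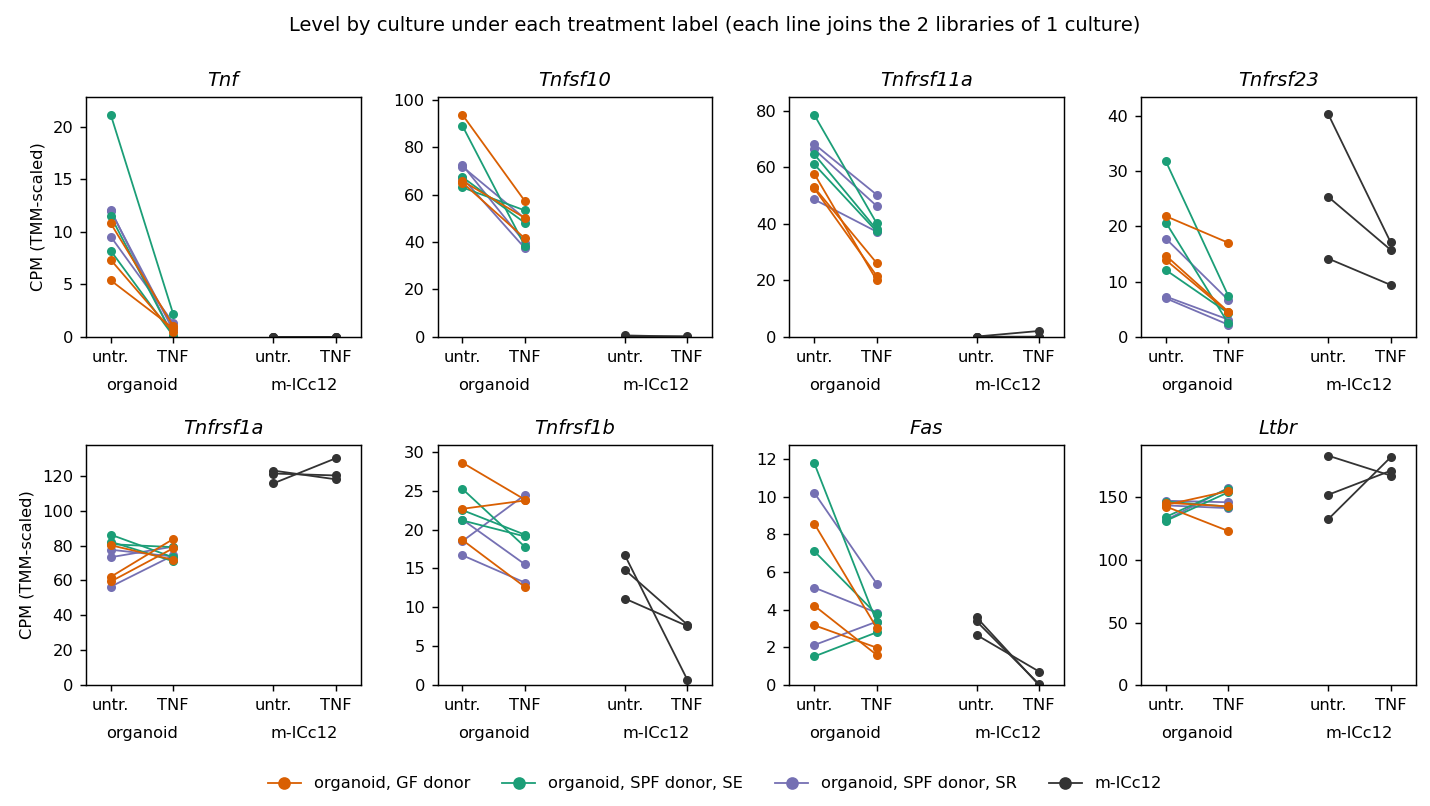
Level in CPM (TMM-scaled, linear axis from 0) of 8 members under each treatment label, with a line joining the 2 libraries of a culture, for 9 organoid cultures coloured by facility and 3 m-ICc12 cultures in black. All 9 organoid lines fall from the untreated to the TNF label for Tnf, Tnfsf10, Tnfrsf11a and Tnfrsf23, while the lines for Tnfrsf1a and Ltbr go either way.

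The same comparison in m-ICc12 cells, 3 libraries against 3, called 0 of 14 members tested with edgeR (0.11% of the 11861 genes tested, 13 genes, were called). At an unadjusted p under 0.05 there were 5 members and 556 genes in all, and DESeq2 also called 0. With the study's thresholds, 4 members passed, all lower with the TNF label, against 3.75% of all genes and 2.02% that were lower: Fas, Tnfrsf9, Tnfrsf1b and Tnfrsf23. The median log2 fold change was -0.23 for the 14 members and -0.01 for all genes.

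Fas was at 3.59, 3.38 and 2.66 CPM in the m-ICc12 libraries M1, M2 and M3 labelled untreated and at 0, 0.0536 and 0.720 CPM in those labelled TNF-treated. Tnfrsf9, the costimulatory receptor whose promoter is shown above, was at 4.21, 3.95 and 2.69 CPM and at 0, 1.019 and 0.528 CPM. Tnfrsf1b was at 16.7, 11.1 and 14.8 CPM and at 0.696, 7.59 and 7.78 CPM. None of these 3 pairs of groups overlapped, which was so in the direction of lower with the TNF label for 5.59% of all genes tested.

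The log2 fold changes were -3.45 ± 1.16 (SE; edgeR, adjusted p = 0.90) for Fas, -2.62 ± 0.97 for Tnfrsf9 and -1.33 ± 0.54 for Tnfrsf1b (both adjusted p = 1). The M1 library labelled TNF-treated, with the fewest counts and most Lars2, was the lowest for each of them. Without the 2 libraries rich in Lars2, which leaves 1 library with the TNF label that is taken to vary like the others, they were -5.84, -1.84 and -0.93. The summed leukocyte markers also differed between the labels in these cells, at 15.04 to 16.65 CPM without and 6.09 to 12.2 CPM with TNF on the label, with Ptprc and Cd14 above background and Cd3e and Adgre1 at 0. Their part in the result was not tested.

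Tnfrsf23 was at 14.2, 25.3 and 40.3 CPM in M1, M2 and M3 labelled untreated and at 9.40, 15.7 and 17.1 CPM with the TNF label, at -0.89 ± 0.36 (SE; edgeR, adjusted p = 1). Tnfrsf21, a death domain receptor, was at 86.3, 86.4 and 64.5 CPM with the untreated label and at 107.9, 126.3 and 90.3 CPM with the TNF label, and its 2 groups did not overlap (3.86% of genes in that direction); its log2 fold change was 0.47 ± 0.18. Tnfrsf1a was at 115.6, 121.3 and 123 CPM and at 130, 120.2 and 118 CPM, at 0.05 ± 0.16. The Tnf gene had 0 counts in all 6 libraries, so that the largest difference of the organoids has no counterpart that could be measured here. Tnfsf10 and Tnfrsf11a did not reach 10 counts in 50% of the m-ICc12 libraries of either label and were not tested there. Of the 28 complex members and adaptors, 27 were tested and 1, Tnfaip3, was lower with the TNF label (-1.65 ± 0.27), with a list median of -0.23. None of the 5 shedding genes tested passed.

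**Figure D4:**
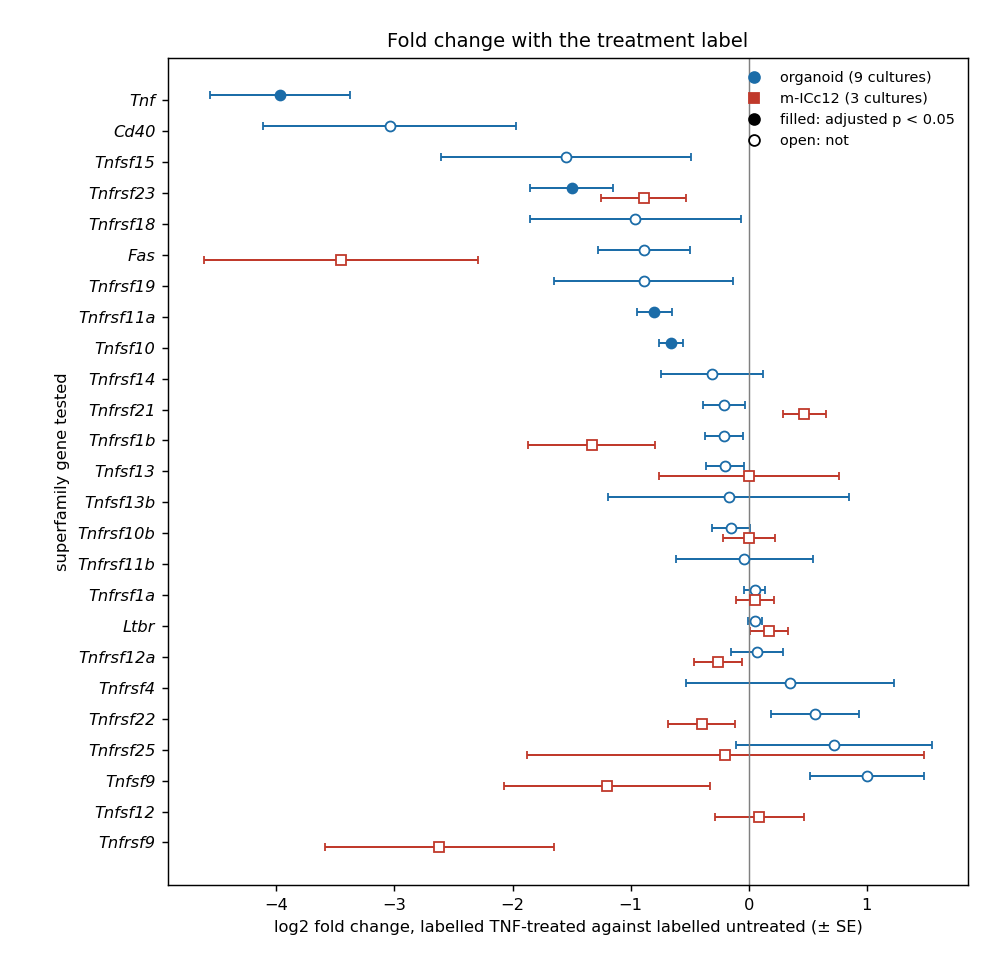
Log2 fold change (± SE) with the treatment label, labelled TNF-treated against labelled untreated, of each member tested in organoids (circles, 9 cultures, 23 genes) and m-ICc12 cells (squares, 3 cultures, 14 genes); filled symbols have an adjusted p under 0.05 in edgeR. The 4 filled symbols are organoid values, from Tnf at -3.97 to Tnfsf10 at -0.66, and Tnfrsf1a lies at 0.05 in both.

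Whether the response differs between the models was tested as an interaction. For Tnf, Tnfrsf19 and Tnfsf13b, with 0 counts in every m-ICc12 library, this test could not decide (SE of 9320, 1503 and 437). With edgeR, 0 of 25 members passed (0.159% of all genes did), with 7 of them, and 857 of the 13183 genes, at an unadjusted p under 0.05. The smallest p among them belonged to Tnfrsf11a, at a log2 difference of 3.20 ± 1.12 (SE; edgeR, adjusted p = 0.51), m-ICc12 minus organoid. It was the 1 member called by DESeq2 (4.14, adjusted p = 0.013) and, with the culture as a block, by edgeR (4.05, adjusted p = 0.0079). In m-ICc12 cells this gene was at 0.117, 0.0218 and 0.0240 CPM in M1, M2 and M3 labelled untreated and at 2.09, 0.0268 and 0.0480 CPM with the TNF label. The value thus rests on 12 counts in 1 library, M1 labelled TNF-treated; without culture M1 the difference was 1.32, and without the 2 libraries rich in Lars2 it was 0.01.

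The donors' microbiota was the next question. Between the 3 GF and 6 SPF cultures labelled untreated, edgeR called 0 of 23 members (0.0325% of all genes), with 1 at an unadjusted p under 0.05, and DESeq2 called 0. This 1 was Tnfsf13, which encodes the B cell factor APRIL, at 17.3, 18.5 and 28.3 CPM in GF and at 25.7 to 43.3 CPM in SPF cultures, at -0.57 ± 0.24 (SE, GF minus SPF; edgeR, adjusted p = 1). With the labels exchanged its value was 0.05. Tnf was at a mean of 7.83 ± 2.75 CPM in GF, 13.6 ± 6.72 in SE and 11.2 ± 1.43 in SR cultures (SD, n = 3 each), at -0.67 ± 0.40 between GF and SPF, and Tnfrsf1a at -0.19 ± 0.16.

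The response to treatment did not pass the test of a difference between GF and SPF cultures for any of 24 members, nor for any gene (0% called, 323 genes at an unadjusted p under 0.05, edgeR; DESeq2 called 1 gene, no member). The 1 member with an unadjusted p under 0.05 was again Tnfrsf11a. In the libraries labelled TNF-treated it was at 20.1, 21.7 and 26.2 CPM in the 3 GF cultures and at 37.3 to 50.4 CPM in the 6 SPF cultures, with no overlap, as in this direction for 1.01% of the 12640 genes tested. With the untreated label the ranges were 52.6 to 57.8 and 48.7 to 78.7 CPM and overlapped. The interaction was -0.63 ± 0.22 (SE; edgeR, adjusted p = 1), and every culture of both kinds was lower with the TNF label. Tnf differed by 0.87 ± 1.17 and Tnfsf10 by 0.10 ± 0.23 in the same test.

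Between the SPF facilities SE and SR, edgeR called 0 of 23 members with the untreated label (0% of all genes, 486 at an unadjusted p under 0.05). With the study's thresholds, 5 members were higher in SE, against 1.83% of all genes (3.08% in both directions): Tnfrsf12a, Tnfrsf19, Tnfrsf23, Tnfsf13b and Tnfsf15. Tnfsf15, a ligand known to costimulate T cells, was at 4.44, 1.67 and 1.71 CPM in the SE cultures Z911, Z912 and Z913 and at 0, 0.0343 and 0 CPM in the SR cultures. Its adjusted p was 0.79 in edgeR and 0.031 in DESeq2, which made it the 1 member called by that tool. Tnfrsf12a was at 0.77 ± 0.35 and Tnfrsf23 at 1.00 ± 0.45 (SE minus SR, SE of the fit). Tnfrsf19 was at 11.51, 1.376 and 1.586 CPM in Z911, Z912 and Z913 and at 0.1163 to 1.097 CPM in the SR cultures. Tnfsf13b was at 2.051, 1.933 and 0.1586 CPM and at 0 CPM. Under the TNF label the mean of Tnfsf13b was lower in SE (0.3083 CPM) than in SR cultures (0.8044 CPM). Tnfrsf23 was there at means of 4.709 and 4.001 CPM, and the means of Tnfrsf12a, Tnfrsf19 and Tnfsf15 were also higher in SE. The 3 facilities had 3 mice each, so that a facility and its litter cannot be told apart.

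Organoids were then compared with m-ICc12 cells, both labelled untreated. Of 24 members tested, 19 differed (edgeR, adjusted p under 0.05), 12 higher and 7 lower in organoids, where 60.9% of all genes differed, 31.6% higher and 29.3% lower. The share of members, 79.2%, is to be read against that background. The median log2 fold change was 1.11 for the members and 0.03 for all genes. A gene was tested where either group passed the count filter. Of the members called higher, Cd40, Tnf, Tnfrsf4, Tnfrsf11a, Tnfrsf11b, Tnfrsf14, Tnfrsf18, Tnfrsf19, Tnfsf10 and Tnfsf15 passed it in organoids only. Of those called lower, Tnfrsf9 and Tnfsf12 passed it in m-ICc12 cells only. The median and the split into higher and lower thus largely follow from which members passed the filter in each cell type. In the comparison with MEFs, 16 of 26 members differed, 11 higher and 5 lower in organoids, against 67.2% of all genes (34.6% higher, 32.6% lower), with medians of 0.65 and 0.03. The filter acts on the comparison with MEFs in the same way. Both comparisons use the same 9 organoid libraries, and their values are not independent of each other. All MEF libraries are labelled untreated. If the labels of the pairs are the wrong way round, organoids and m-ICc12 cells with TNF are set against MEFs without it. Cell type and treatment could then not be told apart in the comparisons with MEFs.

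Tnf, at 5.37 to 21.1 CPM in organoids, had 0 counts in the 3 m-ICc12 and the 3 MEF libraries. Taken against the floor of 3 counts in the shallowest library of each group, it was at least 118-fold higher in organoids than in m-ICc12 cells and at least 91.3-fold higher than in MEFs. With the labels exchanged, the organoid libraries are those at 0 to 2.17 CPM (mean 0.727), the bounds drop to 1.47-fold and 6.10-fold, and the gene was still called against both (edgeR, adjusted p = 0.014 and 0.0057). Of its 3-gene cluster on chromosome 17, Ltb, Tnf and Lta within 10.9 kb, only Tnf was present in any cell type.

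Tnfrsf11a, at a median of 61.2 CPM in organoids, was at 0.117, 0.0218 and 0.0240 CPM in m-ICc12 cells and at 0.784, 1.91 and 0.153 CPM in the MEF libraries R1, R2 and R3. Its log2 fold change was 10.17 ± 0.38 (SE; edgeR, adjusted p = 1.2e-12) against m-ICc12 cells and 5.96 ± 0.46 (adjusted p = 9.3e-09) against MEFs. Tnfsf10, at a median of 67.4 CPM, was at 0.117, 0.611 and 0.0720 CPM in m-ICc12 cells and at 0.0950, 0.151 and 0.153 CPM in MEFs, at 8.02 ± 0.45 and 9.10 ± 0.28. The values against m-ICc12 cells moved most with 1 library: without M1 that of Tnfrsf11a was 11.17, and without M2 that of Tnfsf10 was 9.58. Against MEFs, Tnfrsf11a was at 6.92 without R2 and Tnfsf10 stayed between 8.88 and 9.23. With the labels exchanged, Tnfrsf11a was at 6.89 against m-ICc12 cells and 5.16 against MEFs, and Tnfsf10 at 8.85 and 8.43.

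Further members differed between organoids and 1 or both of the other cell types. Tnfrsf19, a receptor known as a Wnt target of intestinal stem cells, ranged from 0.116 to 11.5 CPM in organoids (median 1.59) and had 0 counts in all m-ICc12 and MEF libraries, so that its mean was at least 42.6-fold and 33.0-fold higher (4.35-fold and 18.1-fold with the labels exchanged). Cd40 was at 0 to 4.14 CPM in organoids (median 0.783), at 0.0876, 0 and 0.0480 CPM in m-ICc12 cells and at 0 in MEFs, and its mean was at least 14.7-fold and 11.4-fold higher; the call against m-ICc12 cells was lost without M2 or M3 (adjusted p up to 0.064). Under the TNF label Cd40 had a mean of 0.155 CPM in organoids, with 0 counts in 6 of 9 libraries, and was too low to be tested. Tnfrsf11b, the secreted decoy for RANKL, was at 0.222 to 12.2 CPM in organoids (median 3.31), at 0 in m-ICc12 cells and at 9.31, 11.1 and 10.0 CPM in MEFs. It was at least 49.7-fold higher than in m-ICc12 cells (with the labels exchanged, where an m-ICc12 library held 4 counts, it was called at 6.27 on the log2 scale), and against MEFs its log2 fold change of -1.13 ± 0.77 did not pass (edgeR, adjusted p = 0.21). Tnfsf15, at 0 to 4.44 CPM in organoids (median 0.799), was at 0 in m-ICc12 cells and at 0.0712, 0.0251 and 0 CPM in MEFs, at least 12.1-fold and 9.34-fold lower in mean than in organoids; under the TNF label its organoid mean was 0.378 CPM and it was not tested. Its call against MEFs was lost when any 1 of Z911, Z912, Z913, Z918 or the 3 MEF libraries was left out (adjusted p up to 0.13).

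A smaller number of members were lower in organoids. Tnfsf12, which encodes TWEAK, was at 0 to 0.286 CPM in the organoid libraries labelled untreated, with a median of 0, and at 19.6, 7.46 and 11.4 CPM in m-ICc12 cells and 9.97, 15.7 and 12.8 CPM in MEFs. Its log2 fold change was -8.07 in both comparisons (± 1.05 and ± 1.02, SE; edgeR, adjusted p = 4.7e-06 and 3.2e-06), and without Z917 it was -9.85 and -9.84. Tnfrsf12a, the receptor of TWEAK, moved the same way: at 9.77, 23.1 and 40.6 CPM (lowest, median and highest) in organoids, 197.2, 108.3 and 143.4 CPM in m-ICc12 cells and 216.6, 206.3 and 247.1 CPM in MEFs, at -2.52 ± 0.28 and -3.11 ± 0.26. Fasl, the ligand of Fas, was at 0 in all organoid libraries and at 0.0237, 0.326 and 1.99 CPM in MEFs, with 1, 13 and 52 counts in R1, R2 and R3. Its mean was at least 4.69-fold higher in MEFs, a bound that drops to 1.05-fold without R3 and to 2.97-fold with the labels exchanged.

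Tnfsf12 and its neighbour Tnfsf13 lie within 13 kb on chromosome 11 and differed between the cell types in opposite directions. Tnfsf13 was at 17.3 to 43.3 CPM in organoids, at 0.906, 8.21 and 2.40 CPM in m-ICc12 cells and at 3.09, 2.71 and 0.688 CPM in MEFs, at 2.88 ± 0.52 (SE; edgeR, adjusted p = 0.00016) and 3.70 ± 0.44 (adjusted p = 1.7e-06), the former being 4.11 without M2. An annotated read-through gene, Tnfsfm13, covers 48.3% of the exon bases of Tnfsf12 and 60.1% of those of Tnfsf13 on the same strand, and Tnfsf13os lies over 13.5% of the latter on the other strand. It was at 14.2 to 37.8 CPM in these organoids, 10.7 to 16.4 CPM in m-ICc12 cells and 7.19 to 10.8 CPM in MEFs. How reads shared by these genes were counted is not stated, so that the 2 levels are uncertain.

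With the untreated label, the TNF receptors differed less. Tnfrsf1a was at 56.5 to 86.2 CPM in organoids, 115.6 to 123 CPM in m-ICc12 cells and 78.1, 78.5 and 56.2 CPM in MEFs, at -0.69 ± 0.13 (SE; edgeR, adjusted p = 0.00028) against m-ICc12 cells and 0.06 ± 0.15 (adjusted p = 0.74) against MEFs. Tnfrsf1b was at 16.7 to 28.6 CPM in organoids, 11.1 to 16.7 CPM in m-ICc12 cells and 31.3, 30.2 and 23.8 CPM in MEFs, at 0.63 ± 0.23 (edgeR, adjusted p = 0.026, but up to 0.13 without M2 or M3 and 0.12 with all 27 libraries in 1 fit) and -0.37 ± 0.19 (adjusted p = 0.10). Fas was at 2.66 to 3.59 CPM in m-ICc12 cells and 2.56 to 4.04 CPM in MEFs, at 0.92 ± 0.63 and 0.97 ± 0.63 for organoids against each (edgeR, adjusted p = 0.22 and 0.18). With the TNF label, the mean of Fas was 3.235 CPM in organoids and 0.258 CPM in m-ICc12 cells, and that of Tnfrsf1b 18.85 and 5.354 CPM. Tnfrsf1a was there at means of 76.1 and 122.7 CPM. These m-ICc12 means include the M1 library with the fewest counts. Tnfrsf21 stood between the others in organoids, at a median of 21.1 CPM, with 64.5 to 86.4 CPM in m-ICc12 cells and 3.76 to 4.27 CPM in MEFs, and both differences passed (-1.82 ± 0.23 and 2.47 ± 0.33).

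Between m-ICc12 cells and MEFs, 12 of 19 members differed (59.3% of all genes), 6 higher (28.1%) and 6 lower (31.2%) in m-ICc12 cells, with medians of -0.05 for members and all genes. The calls of Tnfrsf9, Tnfrsf11a, Tnfrsf12a and Fasl among them were lost when 1 of several libraries was left out (adjusted p up to 0.085, 0.21, 0.06 and 0.33). Tnfrsf11b was at 0 in m-ICc12 cells with the untreated label and at least 110-fold higher in MEFs (with the labels exchanged it was called at -7.38 on the log2 scale), and Tnfrsf21 was higher in m-ICc12 cells at a log2 fold change of 4.24 ± 0.20 (SE; edgeR, adjusted p = 1.4e-09). Tnfrsf22 and Tnfrsf23, which share 15.8% and 9.31% of their 100-base stretches with other genes and lie in a cluster of 78.2 kb with Tnfrsf26 on chromosome 7, were higher in m-ICc12 cells at 1.61 ± 0.30 and 1.47 ± 0.34. Their neighbour Tnfrsf26 was at 0.285, 0 and 1.80 CPM in MEFs, at 0 in all organoid libraries but the one of Z917 labelled TNF-treated (0.757 CPM), and at 0, 0.0655 and 0.0480 CPM in the m-ICc12 libraries labelled untreated.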

How the data were processed

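The study sequenced poly-A selected RNA as single-end reads. The authors trimmed the reads and aligned them with STAR to GRCm38; the submitters' processing notes name STAR 2.5.4b and featureCounts, while the methods of the study name GenomicRanges for counting. The kit is stranded per the labels, while the methods of the study name a TruSeq RNA kit and say nothing of strand. Which of these holds was not settled. The use of strand in counting and the handling of reads that align to several places are not given in the sources used here. The deposited values are counts per gene and library, as whole numbers, not normalized by the authors.

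Groups, and the pairing by culture, were taken from the sample labels. Counts were scaled with TMM and tested with edgeR 4.0.16 (glmQLFit and glmQLFTest, R 4.3.3). Fits held only the groups compared, with no covariate and the filter of 10 counts in 50% of the libraries of any 1 group. A prior count of 2 entered only the log2 CPM used for the correlation between the libraries of a culture. Of 22524 gene IDs, 22291 matched GENCODE vM21. Adjusted p-values are Benjamini-Hochberg over all genes tested. CPM are TMM-scaled, and lengths are exon unions of that annotation. The members and gene lists were chosen with earlier results of these data known. Named genes are the members with an adjusted p under 0.05 in a treatment test, Tnf, Tnfrsf1a, Tnfrsf1b and Fas, and the 6 largest changes of organoids against each cell line; others named were chosen after their values were seen.

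Folds against a group at or under 3 counts per library are lower bounds, which cover counting error only. The p-values measure the spread between these libraries. The 2 libraries of an organoid culture come from 1 mouse and deviated from their group means together (correlation 0.082 to 0.310, highest with its own partner in 9 of 9 cultures); m-ICc12 libraries of a number did not (-0.0067 to 0.0925, 1 of 3), and there the number was not taken as a pair. Alternatives were DESeq2 1.42.0, RLE factors, no filter, all 27 libraries in 1 fit, a block on culture, facility as a covariate, exchanged labels, leaving out each culture and, chosen after seeing the data, leaving out 2 libraries rich in Lars2, and levels and bounds with exchanged labels or without R3. Some of the tests were checked on simulated data, with independent libraries, the same spread for all genes and changes only in genes of higher counts. That check does not cover members at low counts or the correlation between the libraries of a culture. Python 3.11.15 was used for sums and figures. All per-sample columns were used. The value of 1 marker gene is not reported here.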

Additional observations from a re-analysis of the deposited data

Results flagged for a closer look

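In the 46 groups of 9 organoid libraries made by 23 members and 2 labels, 9 held a library far from the others. The measure was the gap to the nearest over the range of the group, against Dixon's 95% value. For independent groups of normally distributed values, chance gives about 1 in 20. CPM were used here, some of them near the floor, and the groups share libraries, so that the 9 cannot be set against this rate. Culture Z911, from the SE facility, gave 5 of them. With the untreated label it stood above the others for Tnf at 21.1 CPM (next 12.1), Tnfrsf25 at 3.49 CPM (next 1.19) and Tnfsf15 at 4.44 CPM (next 1.71). With the TNF label it stood above the others for Tnfrsf14 at 11.6 CPM (next 5.12) and Tnfrsf19 at 6.95 CPM (next 2.97). This library of Z911 was the shallowest of the organoids, at 11440041 counts against a median of 31222456 for organoids with the TNF label.

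Culture Z917, from the GF facility, stood apart with the TNF label for Tnfrsf23, above the others at 17 CPM (next 7.4), and for Ltbr, below them at 123 CPM (next 141). With the untreated label, Z909 was highest for Tnfrsf4 at 3.6 CPM (next 1.07), and with the TNF label Z910 for Tnfrsf25 at 5.2 CPM (next 2.22). Without Z911 the log2 fold change of Tnf with the treatment label stayed within -4.17 to -3.76, the range over all cultures left out in turn.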

How the results depend on the processing

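In organoids, the treatment label called 4 members in each alternative but 3 with all 27 libraries in 1 fit, and 3 to 4 with a culture left out; the directions of Tnf, Tnfsf10, Tnfrsf11a and Tnfrsf23 were kept in all of these. The replicate block (culture) called 397 genes in place of 168 and the same number of members, 4. In m-ICc12 cells, where 13 genes were called, DESeq2 called 46, no filter 30, all 27 libraries in 1 fit 26, the replicate block 6 and leaving out the 2 libraries rich in Lars2 7, and with a culture left out the count was 15 to 93; members stayed at 0. For the difference between m-ICc12 cells and organoids (21 genes), DESeq2 called 71 genes and 1 member, the block 103 and 1, 1 fit of all libraries 10, the Lars2 alternative 36, and leaving out a culture gave 11 to 40. For the difference between GF and SPF responses DESeq2 called 1 gene.

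Between GF and SPF organoids (4 genes), DESeq2 called 21 and 1 fit of all libraries 26, and leaving out a culture gave 2 to 5; the value of Tnfsf13 turned from -0.57 to 0.05 with exchanged labels. Between SE and SR (0 genes), DESeq2 called 8 genes and 1 member, RLE factors 1, no filter 5, 1 fit of all libraries 2 and exchanged labels 1, with 0 to 35 when a culture was left out. Organoids against m-ICc12 cells called 16 to 21 members and against MEFs 14 to 17 over all alternatives, and m-ICc12 cells against MEFs 9 to 12. Fasl against MEFs had an adjusted p of 0.051 in DESeq2. With at least 10 counts required in every library, 15 members were present in organoids in place of 23. Apart from these, the block changed no other call of a member. The causes were not tested.

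Depth limits members near 3 counts (0.494 CPM in the shallowest library), as does sharing of reads between Tnfrsf22 and Tnfrsf23 and between Tnfsf12, Tnfsf13 and Tnfsfm13. Genes of the other strand cover 27.2% of the exon bases of Tnfrsf18 and 14.9% of those of Tnfsf9, which matters if strand was not used.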
